A study of Mus musculus with 2 samples.

Results

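Opposite-strand transcripts are genes named after a neighbour on the other DNA strand: the symbol of the neighbour is followed by "os" and, where there are several, a number. Members were all genes whose symbol has this form and whose neighbour, here called the sense partner, is also in the tables. Of 43346 Ensembl genes, 290 had such a symbol, and 288 remained after Hoxa11os and Dlx6os1 were left out by the rule. The 288 transcripts belonged to 247 sense partners. A single opposite-strand transcript was listed for 217 partners, 2 or more for 30 partners, and 5, the most, for Sox5. In the GENCODE M21 annotation all 288 lay on the strand opposite to their partner, and all partners were protein-coding. The annotation classed 252 of the 288 as antisense RNAs, 11 as lincRNAs, 11 as processed transcripts and 10 as protein-coding genes in their own right, with 4 in other classes.

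Limbs of B6NCrl mouse embryos at 13.5 days, with males and females pooled, gave 2 libraries of total RNA longer than 200 nt, each from 10 ng of input with ERCC spike-ins. They form 1 group, E13.5 limb, and are numbered as biological replicates 1 and 2, with different tissue entries but the same donor entry. Whether they came from separate animals, and whether fore- or hindlimbs were used, is not stated, so the spread between them may be partly technical. The totals were 31927045 expected counts in replicate 1 and 43194454 in replicate 2, and the 288 transcripts took 0.101% and 0.110% of them. All 22 listed markers of limb mesenchyme, cartilage, muscle, keratinocytes and endothelium reached 1 TPM in each library, and 0 of 5 brain markers did. The 5 liver markers summed to 39.37 TPM in replicate 1 and 5.68 TPM in replicate 2. Their part in differences between the libraries was not tested. In whole tissue, fewer cells that carry a transcript and less of it per cell cannot be told apart.

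As background, transcription on both strands is common at mammalian genes. An opposite-strand RNA can start beside the sense promoter and run away from it, can cross the sense gene within an intron or an exon, or can lie past its end. Some act on their neighbour in cis, some carry microRNAs or encode a protein, and many have no known role. In the developing limb, transcripts of this kind lie beside genes of patterning, cartilage and bone formation such as Hand2, Tbx3, Sox5 and Runx2.

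Dnm3os is the best known limb transcript of the class: it lies within an intron of Dnm3, the gene of dynamin 3, and is the host of the microRNA genes Mir199a-2 and Mir214. Mice without Dnm3os have skeletal defects. Its 4 mature microRNAs are shown because they are the known products of the most abundant member. They are RefSeq sequences on GRCm38.p6, all on the plus strand of chromosome 1, with the seed (bases 2 to 8) in capitals.
mmu-miR-199a-5p: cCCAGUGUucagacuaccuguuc
mmu-miR-199a-3p: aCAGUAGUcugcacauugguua
mmu-miR-214-5p: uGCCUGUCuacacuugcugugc
mmu-miR-214-3p: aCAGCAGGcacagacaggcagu
The 4 seeds differ from each other. The Mir199a-2 hairpin starts 191 bases and the Mir214 hairpin 5745 bases after the annotated start of Dnm3os, both on its strand. The libraries held RNA longer than 200 nt, so the mature microRNAs were not measured.

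A different arrangement is a pair of genes that start back to back. RefSeq promoter windows (GRCm38.p6, 250 bases before to 50 after the sense start, read along the sense strand; the RefSeq start can differ from that of GENCODE M21) are shown for 4 such pairs, since the opposite-strand transcript was the higher member at the first pair and the second and the lower member at the other two. Capitals mark the bases between the GENCODE M21 starts of the opposite-strand transcript (left) and the sense gene (right), and at Cep83 the M21 start is base 115 of the window.
Brip1os and Brip1, chr11:86201144-86201443, minus strand: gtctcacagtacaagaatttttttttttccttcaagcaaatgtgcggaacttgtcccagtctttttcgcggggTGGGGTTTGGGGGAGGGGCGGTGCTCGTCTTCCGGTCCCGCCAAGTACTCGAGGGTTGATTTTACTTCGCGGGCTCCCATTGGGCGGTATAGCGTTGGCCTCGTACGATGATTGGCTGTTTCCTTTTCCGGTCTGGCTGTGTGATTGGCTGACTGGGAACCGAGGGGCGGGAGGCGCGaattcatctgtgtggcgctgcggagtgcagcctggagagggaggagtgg
Lhx1os and Lhx1, chr11:84525485-84525784, minus strand: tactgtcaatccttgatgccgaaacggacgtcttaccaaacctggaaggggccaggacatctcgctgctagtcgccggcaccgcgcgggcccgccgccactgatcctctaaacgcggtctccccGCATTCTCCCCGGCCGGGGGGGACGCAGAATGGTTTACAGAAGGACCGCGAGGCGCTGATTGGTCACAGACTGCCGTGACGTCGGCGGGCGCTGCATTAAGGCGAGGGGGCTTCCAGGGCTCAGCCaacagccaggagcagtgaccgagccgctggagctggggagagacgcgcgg
Tmem147os and Tmem147, chr7:30729485-30729784, minus strand: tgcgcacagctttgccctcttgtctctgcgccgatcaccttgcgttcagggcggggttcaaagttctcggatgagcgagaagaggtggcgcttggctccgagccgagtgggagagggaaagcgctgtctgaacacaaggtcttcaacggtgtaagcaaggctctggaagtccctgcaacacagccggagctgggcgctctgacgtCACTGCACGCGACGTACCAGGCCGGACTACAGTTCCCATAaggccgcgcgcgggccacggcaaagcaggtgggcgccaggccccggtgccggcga
Cep83os and Cep83, chr10:94688540-94688839, plus strand: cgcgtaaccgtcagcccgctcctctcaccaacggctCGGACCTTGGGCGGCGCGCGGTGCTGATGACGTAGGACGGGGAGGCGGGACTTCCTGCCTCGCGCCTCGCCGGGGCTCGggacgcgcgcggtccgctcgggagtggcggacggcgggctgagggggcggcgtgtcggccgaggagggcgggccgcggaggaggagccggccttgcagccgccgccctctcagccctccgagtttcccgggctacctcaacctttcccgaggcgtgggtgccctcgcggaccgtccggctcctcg
The starts were 176 bases apart at Brip1, 124 at Lhx1, 38 at Tmem147 and 77 at Cep83, counted between the start bases. These windows held 21, 31, 28 and 46 CG dinucleotides in the same order, against a median of 7 over 32851 mouse promoter windows of the same length. CCAAT was found on either strand at Brip1 and Lhx1, and GGGCGG at Brip1, Tmem147 and Cep83. TATAAA was in none of the 4. CCAAT was also found in the windows of Etaa1 and Map2k3, whose opposite-strand transcripts were lower. It was absent from those of Ccpg1, Fam120a, Med9, Mettl5 and Stam, whose transcripts were likewise lower. Whether CCAAT goes with the direction of the pairs was not tested. Over all windows, 37.4% held CCAAT, 35.7% GGGCGG and 13.6% TATAAA.

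Levels are TPM, a relative abundance that divides the counts by length and scales each library to the same total, so that different genes can be set side by side. Detection here means a TPM of at least 1 in each of the libraries. Of the 288 opposite-strand transcripts 58 (20.1%) were detected. Over all Ensembl genes the share was 34.6%, over protein-coding genes 61%, and over other non-coding genes that overlap a protein-coding gene on the opposite strand 19.8%. The share of the opposite-strand transcripts was therefore close to that of other antisense genes, and over the 233 members that are likewise non-coding and overlapping it was 16.7%. Of their 247 sense partners 171 (69.2%) were detected. Among the transcripts, 13 were at 10 TPM or more in both libraries, and Dnm3os and Wdr83os reached 100 TPM in at least one. The 5 most abundant held 52.2% of the summed TPM of all 288 in replicate 1 and 51.9% in replicate 2.

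Most of the other transcripts were at or near the floor. A further 166 had a count but stayed under 1 TPM in at least one library, 15 of them at 1 TPM or more in the other. No count fell on 64 in either library. There, 3 counts would have given between 0.0277 and 1.92 TPM, with a median of 0.200 TPM, so levels below that were not detectable at this depth. The median over all 288 was 0.175 TPM in replicate 1 and 0.17 TPM in replicate 2, against 7.415 and 7.505 TPM for the sense partner of each pair.

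Each pair was compared within a library as the log2 ratio of the opposite-strand transcript to its sense partner, with 0.1 TPM added to both, and folds below are on that scale. A pair was past the spread when the ratio had the same sign in both libraries and its mean exceeded 2 times the replicate SD seen at the levels of its members. No p-value was computed from the 2 libraries. The opposite-strand transcript was higher in 16 pairs (5.56%) and lower in 204 (70.8%), and 68 pairs (23.6%) were within the spread. In 2865 other overlapping pairs of a non-coding and a protein-coding gene the non-coding gene was higher in 4.43% and lower in 73.1%. Restricted to the 233 members that are non-coding and overlap their partner, the shares were 4.29% and 72.1%, near those of the other pairs. The median ratio over all 288 pairs was -3.68 on the log2 scale, with a range of -13.02 to 5.98. Of the 204 lower pairs, 138 had fewer than 10 counts for the opposite-strand transcript in at least one library, and 69 had fewer than 3 in both. The sense partner was detected in 189 of the 204. A transcript with no count sits at the added 0.1 TPM in both libraries, where the SD is small. Such a pair can be called lower although the floor reaches the level of the partner. For Efhd1os, 3 counts would have given 0.618 and 0.465 TPM, against 0.57 and 0.74 TPM for Efhd1.

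**Figure D1:**
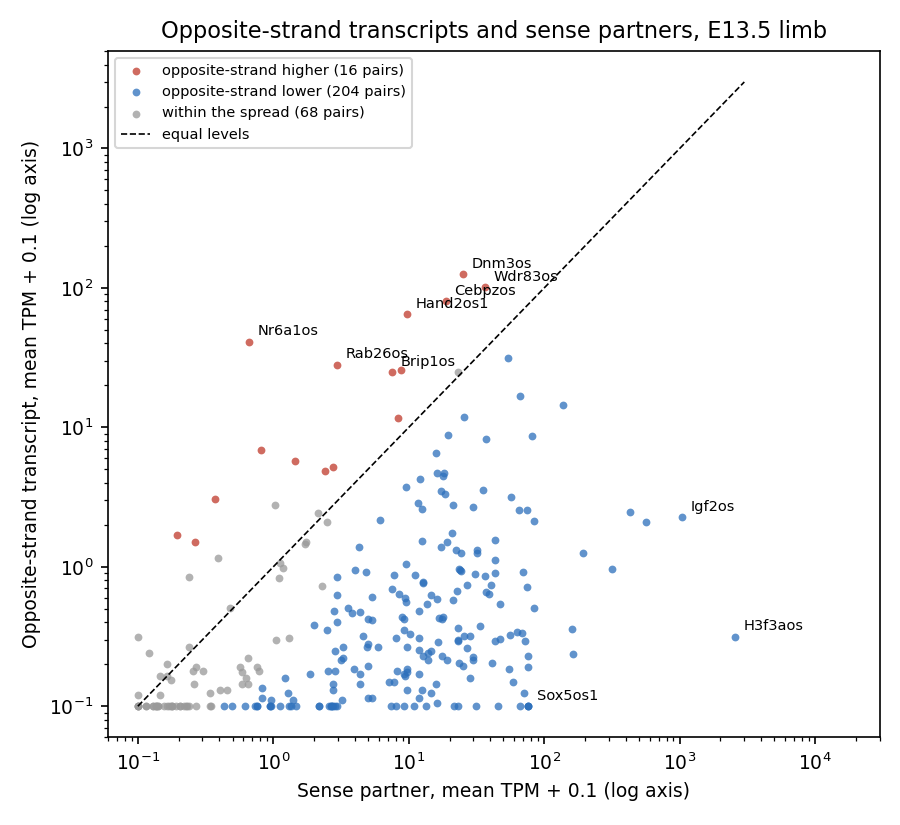
Mean TPM + 0.1 of each opposite-strand transcript (vertical log axis) against that of its sense partner (horizontal log axis) in E13.5 limb, 1 point per pair, coloured by call, with equal levels as a dashed line. Most of the 288 points lie under the line, and the 16 pairs with the opposite-strand transcript higher lie above it, with Dnm3os and Wdr83os at the top.

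Reads from 2 strands can be told apart only if the libraries kept strand and the counting used it, and neither is given in the sources used here. This matters most where exons of both genes cover the same bases, as in 160 of the 288 pairs. Total RNA also holds unspliced precursors, so introns of the sense gene could add reads to a transcript inside it if strand was not used. The 38 head to head pairs and the 10 pairs in which the transcript lies past the sense 3′ end do not overlap. Of the 58 detected transcripts, 22 shared no exon base with their partner in the gene models, and for 28 the most abundant isoform shared none. Among the 16 higher transcripts the counts were 8 and 10. Exon bases of a gene other than the partner were shared by 21 of the 58 detected transcripts. Levels of those members that share exon bases are uncertain to that extent.

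Dnm3os (chr1:162217623-162225550, plus strand) was the most abundant member. It had 115.75 TPM in replicate 1 and 133.98 TPM in replicate 2, against 26.79 and 23.25 TPM for Dnm3, so both Dnm3os values exceeded both Dnm3 values. The mean was 125 ± 12.9 TPM for Dnm3os and 25.0 ± 2.50 TPM for Dnm3 (SD, n = 2), a 4.97-fold ratio. The log2 ratio was 2.31 on TPM and 3.98 on expected counts, where it was above that of Nr6a1os. Dnm3os lies within the span of Dnm3, but the gene models share no exon base. One isoform of 7926 nt, which spans both microRNA hairpins, held 67.97% and 68.92% of its TPM. The hairpin genes themselves were listed at 0 TPM.

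At Hand2, which sets the anterior to posterior polarity of the limb bud, the opposite-strand transcript was again the higher member. Hand2os1, also called upperhand and known to act on Hand2 in the mouse heart, lies at chr8:57281117-57324233 on the minus strand. It had 63.31 and 66.55 TPM, against 9.55 and 9.82 TPM for Hand2. Both libraries gave nearly the same ratio, 6.64-fold in the mean. This size depends on the division by length: the log2 ratio was 2.73 on TPM and 0.76 on expected counts, still past the spread. Its TPM was divided over 8 isoforms, of which the most abundant held 21.27% and 25.13% and shared no exon base with Hand2. The gene models as a whole share 461 bases. Hand2os1 also shares 533 exon bases with another gene on the same strand, so the reads of these genes can be confused.

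On TPM the largest ratio belonged to Nr6a1os, within Nr6a1, an orphan nuclear receptor gene active in early embryos. Nr6a1os (chr2:38823257-38852370, plus strand) had 42.44 and 39.82 TPM, against 0.48 and 0.64 TPM for Nr6a1. The ratio was 62.9-fold, and the gene models share no exon base. It rested on 424 and 524 counts for Nr6a1os, against 63 and 100 counts for the longer Nr6a1. The log2 ratio of 5.98 was 4.77 on posterior mean TPM, 4.76 with 1 TPM added and 2.56 on expected counts. Rab26os lies likewise within Rab26, which encodes a small GTPase of vesicle transport. Rab26os had 27.22 and 28.96 TPM, against 2.86 and 2.84 TPM for Rab26, a 9.55-fold ratio without shared exon bases. Its log2 ratio was 3.26 on TPM and 0.91 on expected counts. Its exons hold the small nucleolar RNA gene Snord60 on the same strand, over 78 bases, so the reads of these genes can be confused.

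In the higher group, 3 members begin back to back with their partners and do not overlap them. Brip1os (chr11:86201370-86304443, plus strand) starts 177 bases from Brip1, which encodes a DNA helicase that binds BRCA1. It had 22.22 and 27.61 TPM, against 7.84 and 6.98 TPM for Brip1, a 3.32-fold ratio. The far end of Brip1os shares 800 exon bases with Med13. Foxd2os starts 384 bases from Foxd2, a forkhead factor gene known from kidney mesenchyme, and had 6.22 and 5.04 TPM, against 1.58 and 1.12 TPM for Foxd2. Lhx1os had 1.26 and 1.90 TPM, against 0.14 and 0.05 TPM for Lhx1, a LIM homeobox gene of motor neurons and kidney. That last value rests on few reads, 12 and 23 counts for Lhx1os and 7 and 4 for Lhx1. The log2 ratio at Lhx1 was 3.12 on TPM and 1.55 on counts, within the spread there. At Foxd2 it was 1.99 on TPM and 1.19 on counts.

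Protein-coding members were also found in the higher group. Wdr83os, whose human counterpart encodes a small endoplasmic reticulum protein called Asterix, had 107.27 and 94.01 TPM, against 35.76 and 37.65 TPM for Wdr83. The gene models share 539 exon bases, and the log2 ratio was 1.45 on TPM and 0.72 on expected counts. Cebpzos had 82.89 and 78.56 TPM, against 18.54 and 18.76 TPM for Cebpz, which encodes a CCAAT-binding nuclear protein. That 4.31-fold ratio is per length: on counts, Cebpzos had 896 and 1136, against 1535 and 2063 for the longer Cebpz. The gene models of Cebpzos and Cebpz share 171 exon bases. Of the other 8 protein-coding members, Slc7a6os and Ccpg1os were detected. Slc7a6os had 26.02 and 24.08 TPM, against 23.58 and 22.14 TPM for the amino acid transporter gene Slc7a6, a difference within the spread. Ccpg1os was lower than Ccpg1, at 8.52 and 8.90 TPM, against 18.84 and 19.60 TPM.

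The other higher pairs had smaller values or ratios. Epb41l4aos had 27.74 and 23.32 TPM, against 8.27 and 9.06 TPM for Epb41l4a, and lies past its 3′ end without overlap. The genes of that pair do not touch. Has2os had 4.52 and 5.07 TPM, against 2.19 and 2.39 TPM for Has2, the hyaluronan synthase of limb mesenchyme. The gene models of Has2os and Has2 share 182 exon bases. Lrp8os2 had 4.51 and 5.74 TPM, against 2.70 and 2.63 TPM for Lrp8, a reelin receptor. Ino80dos, beside a subunit of the INO80 chromatin remodeller, had 9.54 and 13.78 TPM, against 8.42 and 8.01 TPM for Ino80d, the smallest ratio at 1.39-fold. In all 4 pairs, and at Cebpz, the sense gene had more expected counts, so the direction depends on the division by length. The log2 ratio on counts was -1.97 at Epb41l4a, -1.50 at Has2, -0.68 at Lrp8 and -1.77 at Ino80d. With replicate 1 alone, Lrp8os2 and Ino80dos were within the spread, with ratios of 0.72 and 0.18 on the log2 scale.

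A further 2 pairs were higher at low levels. Atcayos had 3.46 and 2.43 TPM, against 0.37 and 0.17 TPM for Atcay, the neuronal gene of caytaxin. Its gene model shares 432 exon bases with Atcay and 270 with the neighbouring Nmrk2. Tnfsf13os had 1.64 and 1.15 TPM, against 0.06 and 0.27 TPM for Tnfsf13, which encodes the cytokine APRIL. It rested on 16 and 15 counts, and with replicate 2 alone the pair was within the spread at a log2 ratio of 1.76, as it was on expected counts at 1.69.

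**Figure D2:**
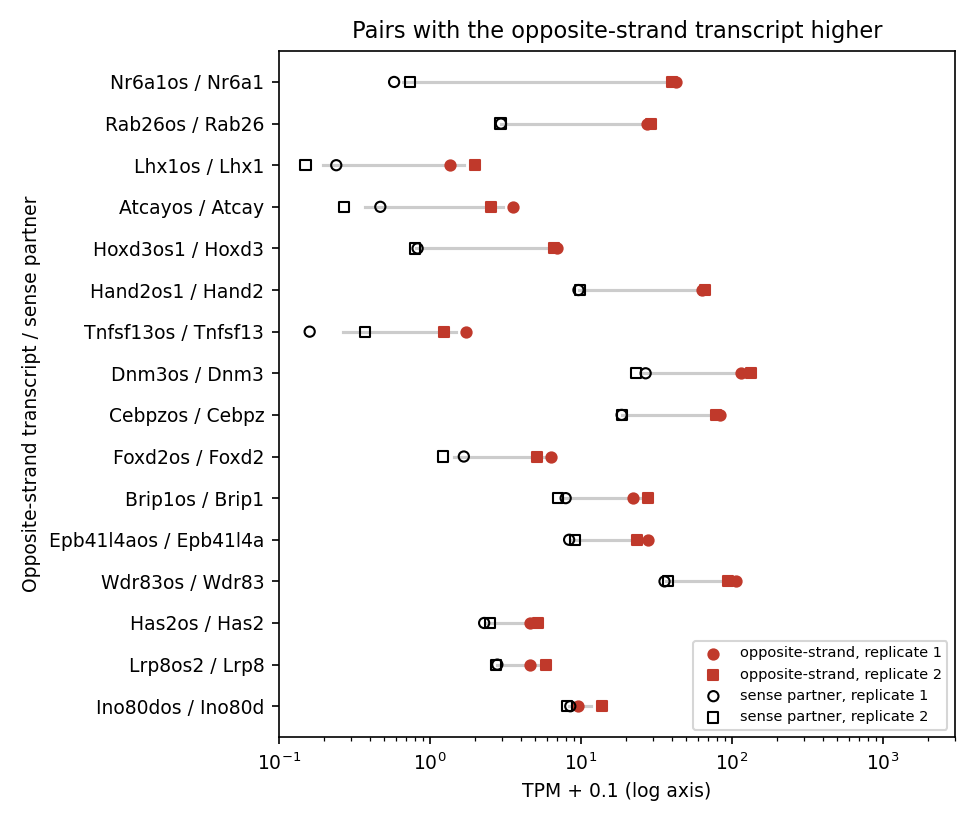
TPM + 0.1 (log axis) of the 16 pairs with the opposite-strand transcript higher, with filled symbols for the opposite-strand transcript, open symbols for the sense partner, circles for replicate 1 and squares for replicate 2, ordered by ratio. Every filled symbol lies to the right of both open symbols of its pair, widest apart at Nr6a1os and closest at Ino80dos.

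In 36 pairs the opposite-strand transcript was detected and lower, by 1.74-fold at Sp3os to 460-fold at Igf2os, with a median of 7.94-fold. Rab10os, beside the gene of a small GTPase, had 16.11 and 17.27 TPM, against 64.89 and 66.61 TPM for Rab10. Sp3os had 34.02 and 28.18 TPM, against 53.33 and 54.65 TPM for Sp3, a zinc finger factor, so its libraries stayed below both of Sp3. At the back to back pairs shown as sequences, Tmem147os had 13.69 and 15.09 TPM, against 138.75 and 137.89 TPM for Tmem147. Cep83os had 4.71 and 4.53 TPM, against 15.94 and 16.05 TPM for Cep83, a centriole appendage gene. Tmem147os was thus 9.56-fold lower than its partner and Cep83os 3.41-fold lower. Tmem147 encodes a membrane protein of the endoplasmic reticulum. Atad3aos, also back to back, had 8.43 and 8.67 TPM, against 83.36 and 78.80 TPM for Atad3a, a mitochondrial ATPase gene. Atad3aos shares 153 exon bases with Vwa1, on the opposite strand.

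Further back to back transcripts were detected below their partners. Map2k3os had 2.30 and 2.58 TPM, against 72.64 and 77.59 TPM for Map2k3, a kinase of the p38 pathway. Stamos had 2.34 and 2.61 TPM, against 63.48 and 67.27 TPM for Stam, an adaptor of endosomal sorting. Fam120aos stood closer to its partner, at 4.97 and 4.19 TPM, against 17.79 and 18.28 TPM for Fam120a. Etaa1os was nearer still, at 4.13 and 3.12 TPM, against 9.37 and 9.40 TPM for Etaa1, an activator of the ATR kinase. Mettl5os and Med9os were just above the threshold, at 1.44 and 1.02 TPM and at 1.12 and 1.18 TPM, against 33.51 and 29.99 TPM for Mettl5 and 32.45 and 31.63 TPM for Med9. Mettl5 modifies ribosomal RNA and Med9 belongs to the Mediator complex. No library of these 6 transcripts reached the level of its partner.

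Wide gaps were found beside highly expressed genes, which follows by arithmetic where the opposite-strand transcript is at a low level. Igf2os had 1.99 and 2.35 TPM, against 1042.25 and 1037.80 TPM for Igf2, the imprinted fetal growth factor gene. Arf4os had 1.65 and 2.32 TPM, against 539.70 and 587.98 TPM for Arf4, and Rbm3os 2.27 and 2.44 TPM, against 458.36 and 401.67 TPM for the cold-inducible Rbm3. Igf2os also shares 1142 exon bases with another gene, so its level is uncertain. Junos, not among the 10 lowest ratios given below, had 1.86 and 2.22 TPM, against 84.54 and 83.92 TPM for the AP-1 factor gene Jun. The lowest ratio of all was that of H3f3aos, at 0.26 and 0.17 TPM, against 2548.46 and 2617.03 TPM for H3f3a, a histone H3.3 gene. Smc2os, back to back with the condensin gene Smc2, reached 1.37 TPM in replicate 1 and 0.96 TPM in replicate 2, against 192.07 and 192.06 TPM for Smc2. Tomm6os, Zmiz1os1, Parvaos, Mecomos and Sap30bpos made up the rest of the 10 lowest ratios among transcripts with 10 counts or more in both libraries, from -8.36 to -5.92 on the log2 scale.

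The 6 detected transcripts within the spread of their partner were Slc7a6os, Dlx4os, Dnah2os, Evx1os, Hectd2os and Prox2os. Evx1os had 2.66 and 2.70 TPM, against 1.11 and 0.74 TPM for Evx1, an even-skipped homeobox gene. The transcript was higher in both libraries, but the log2 ratio of 1.46 was under the 1.78 that the rule required at this level. With 0.01 TPM added, with posterior mean TPM or on expected counts, Evx1os was past the spread. On expected counts 4 of the others were lower than their partners, with log2 ratios of -1.22 for Slc7a6os, -2.65 for Dnah2os, -2.05 for Hectd2os and -1.56 for Prox2os.

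**Figure D3:**
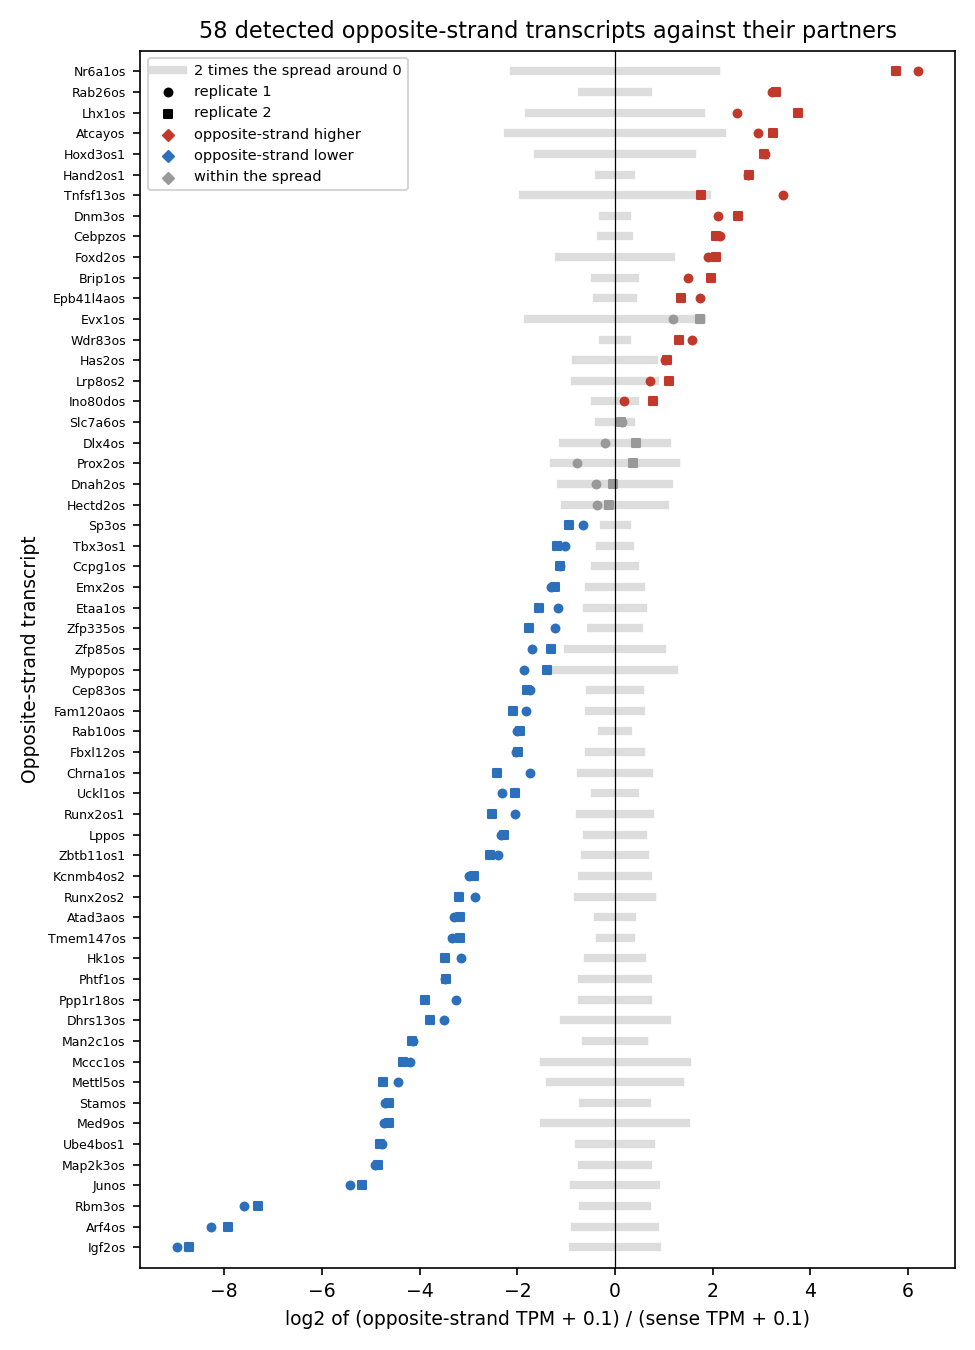
Log2 ratio of opposite-strand transcript to sense partner in each library for the 58 detected transcripts, ordered by mean, with a grey bar for 2 times the spread around 0. Circles are replicate 1 and squares replicate 2, red for the 16 higher, blue for the 36 lower and grey for the 6 within the spread.

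The libraries gave close values for the detected transcripts, in part because detection required 1 TPM in both. The 15 transcripts that reached 1 TPM in only 1 library are left out here. The median size of their log2 difference between libraries was 0.187, and 0 of 58 differed more than 2-fold. The 3 that differed more than 1.5-fold were Chrna1os at 3.34 and 2.17 TPM, Dlx4os at 1.59 and 3.05 TPM, and Lhx1os at 1.26 and 1.90 TPM. The replicate SD over genes of similar level was 0.71 on the log2 scale at 1 TPM, 0.15 at 10 TPM and 0.068 at 100 TPM, so ratios of low members are measured far less well.

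Sense partners that are transcription factors, taken by symbol prefix, made up 39 pairs. The opposite-strand transcript was detected in 12 of them (30.8%), higher in 4, lower in 22 and within the spread in 13. The 4 higher were Hand2os1, Hoxd3os1, Foxd2os and Lhx1os. The median log2 ratio was -1.51 in these 39 pairs and -3.81 in the other 249, where 46 transcripts (18.5%) were detected. The sense partner was detected in 61.5% of the 39 pairs and in 73.5% of the 249. The added 0.1 TPM draws the ratio of a pair near 0 in both genes towards 0, so the medians are not directly comparable. The 39 pairs held 32 distinct factors, of which 17 (53.1%) were detected, against 76.4% of all 716 protein-coding genes with these prefixes, and several were near 0 in both genes of the pair. The prefix list leaves out some factors among the partners, such as Sp3, Jun, Nr6a1 and Prox2.

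Hoxd3os1, in the HoxD cluster of limb patterning genes, had 6.90 and 6.56 TPM, against 0.73 and 0.70 TPM for Hoxd3. The values of both libraries lay close together, 8.38-fold apart between the genes, with a log2 ratio of 3.07 on TPM and 1.03 on expected counts. Hoxd3os1 shares 347 exon bases with Hoxd3 and 347 with Hoxd4, so without strand the reads over those bases cannot be told apart. Hoxb3os had 1.24 and 0.89 TPM, against 0.13 and 0.45 TPM for Hoxb3, and Hoxb5os 0.87 and 0.58 TPM, against 1.20 and 0.81 TPM for Hoxb5. Both of those pairs were within the spread.

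The opposite-strand transcripts of Tbx3, Emx2, Runx2, Sox5 and Sox6 were lower than their partners, whereas those of Hand2 and Hoxd3 were higher. Tbx3os1 had 10.09 and 13.47 TPM, against 20.55 and 30.82 TPM for Tbx3, a T-box gene of the limb margins whose human mutations cause ulnar-mammary syndrome. Tbx3os2 stayed at 0.12 and 0.32 TPM. Emx2os had 6.23 and 6.71 TPM, against 15.54 and 15.78 TPM for Emx2, a homeobox gene needed for the shoulder blade. This direction also depends on length, since Emx2os had 638.73 and 914.05 counts, against 633.27 and 831.95 for Emx2.

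Runx2, the factor required for bone-forming cells, had 12.32 and 12.43 TPM, and its transcripts were all lower: Runx2os1 at 2.89 and 2.07 TPM, Runx2os2 at 1.60 and 1.26 TPM, and Runx2os3 at 0 and 0.06 TPM. Runx2os1 shares 519 exon bases with Runx2 and Runx2os2 shares none. The cartilage factor Sox5 had 81.10 and 71.06 TPM, while Sox5os1, Sox5os4 and Sox5os5 had no count in either library. Sox5os2 had 2 counts and 0, and Sox5os3 had 3 counts and 1. These counts are near the floor beside a well expressed gene. Sox6os, beside the partner factor of Sox5, had 0.45 and 0.68 TPM, against 23.24 and 21.63 TPM for Sox6. Irx3os had 0.82 and 0.74 TPM, against 11.56 and 10.57 TPM for the homeobox gene Irx3, and Zeb2os 1.1 and 0.59 TPM, against 23.33 and 24.04 TPM for Zeb2, a zinc finger homeobox factor. The 17 detected factors made up 24 pairs, since Sox5, Runx2 and Tbx3 enter more than once. Of these pairs, 21 had the opposite-strand transcript lower and 2 higher. Over all 207 pairs with a detected sense partner, the transcript was lower in 189 and higher in 11, so most were lower there too.

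The annotated arrangement of a pair went with how often its opposite-strand transcript was detected. Head to head pairs without overlap had 14 of 38 detected (36.8%), pairs that share exon bases 36 of 160 (22.5%), and pairs that overlap without a shared exon base 5 of 80 (6.25%). Past the 3′ end of the sense gene 3 of 10 were detected. The sense partner was detected in 71.1%, 72.5%, 68.8% and 90% of these classes, in the same order. Where exon bases are shared, sense reads could add to the counts if strand was not used, which was not tested. Where the starts lay within 500 bases, 20 of 57 transcripts were detected (35.1%), against 38 of 231 (16.5%) farther apart, with a median level of 0.750 TPM for near starts and 0.135 TPM for far ones. Their sense partners were detected in 77.2% of near and 70.6% of far pairs. Higher pairs were found in every arrangement: 3 head to head, 8 with shared exon bases, 4 overlapping without one and 1 past the 3′ end. These shares are counts of genes within the same libraries and carry no test. Other antisense genes were not split by arrangement, so whether the pattern is particular to these members was not tested.

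**Figure D4:**
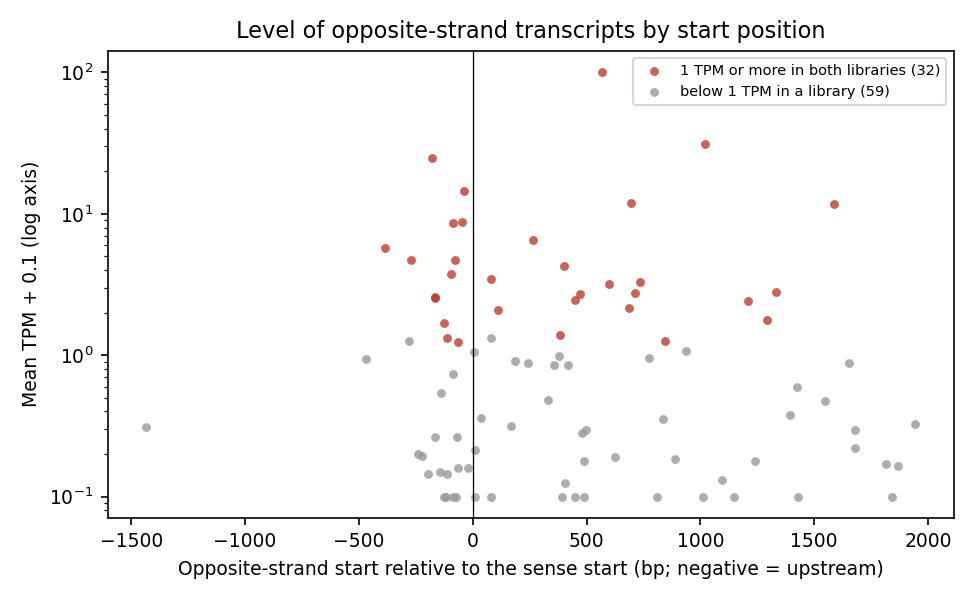
Mean TPM + 0.1 (log axis) of the opposite-strand transcript by the distance of its annotated start from the sense start, in bases, for the 91 pairs within 2000 bases, with negative distances upstream. The 32 detected transcripts (red) lie on both sides of the sense start, 20 of them within 500 bases of it.

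**Figure D5:**
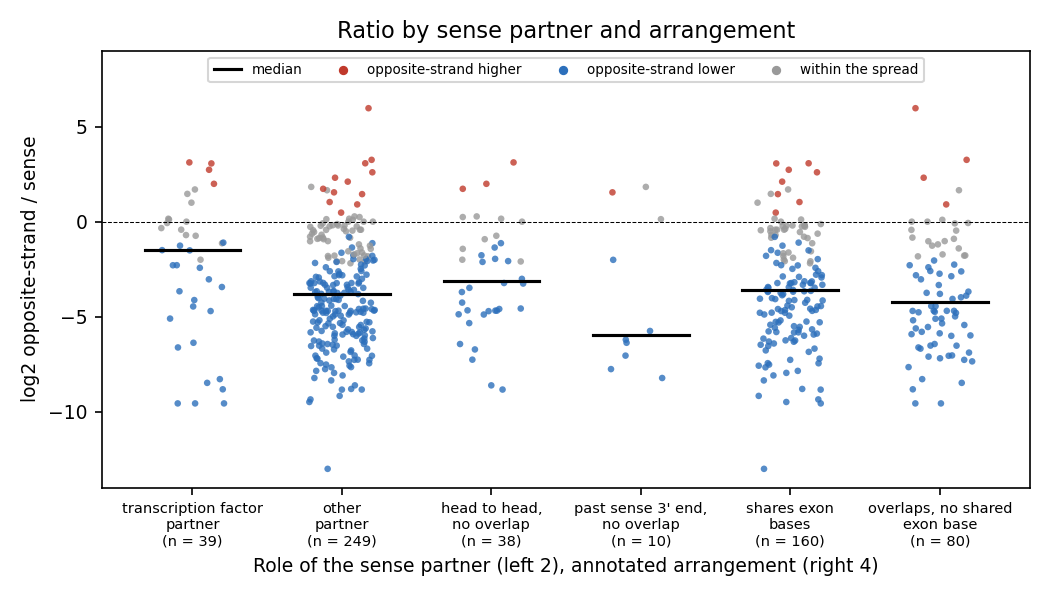
Log2 ratio of opposite-strand transcript to sense partner for all 288 pairs by role of the partner (left 2 columns) and by arrangement (right 4 columns), with the median as a line and colours by call. The median is -1.51 for transcription factor partners and lies between -5.99 and -3.12 in the arrangements.

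Across pairs, the levels of the opposite-strand transcript and its partner were also set side by side. On the log2(TPM + 0.1) scale Pearson's r was 0.38 and Spearman's rho 0.47 over 288 pairs, and 0.050 and 0.028 over the 58 detected ones. These values describe genes of the same libraries, which are not independent replicates and of which some share reads. The opposite-strand transcript was detected in 25.1% of the 207 pairs with a detected partner and in 7.41% of the 81 pairs without one. Both members were detected in 52 pairs, the opposite-strand transcript alone in 6, the sense partner alone in 155 and neither in 75.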

How the data were processed

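RNA of E13.5 limbs was measured in 2 libraries that form 1 group. The build was mm10 and the annotation GENCODE M4, per the labels and the text deposited with the tables. Not given in the sources used here are the aligner, the quantifier and whether strand was used. The deposited expected counts are estimates that need not be whole, and the deposited TPM values scale them by effective length. Posterior mean TPM, bounds of TPM credibility intervals (a signal per gene, deposited by the authors) and each isoform's percent of its gene's TPM were also deposited, per the file headers.

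Symbols were matched to 42462 of 43346 Ensembl genes (98.0%), and the identifier with more counts was kept for a repeated symbol. Positions, strands and biotypes came from GENCODE M21, a later release on the same assembly. Ratios used log2(TPM + 0.1). The spread was the pooled replicate SD of the 500 genes nearest in level, and a pair was called past 2 times the combined spread. No p-value was computed. Python 3.11.15, numpy 2.4.6 and pandas 2.3.3 were used. The pair rule was tried on simulated pairs at levels above those of most members, so calls near the floor were not covered. Named are all detected transcripts, all higher pairs, the 10 lowest ratios with 10 counts or more, pairs with a detected transcription factor and 20 listed antisense RNAs outside the naming rule, with members that add nothing given as counts or ranges. Other pseudocounts, expected counts scaled to equal library size with 0.5 added, posterior means, thresholds and each library alone were alternatives. Members, lists and tests were chosen with earlier results of these data known.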

Additional observations from a re-analysis of the deposited data

How the results depend on the processing

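The detected number was 58 and ranged from 40 at a threshold of 2 TPM to 86 at 0.5 TPM, and it was 64 without replicate 1 and 67 without replicate 2. Higher pairs numbered 14 without replicate 2 and 15 without replicate 1, and lower pairs 205 without replicate 1 and 209 without replicate 2. At 3 times the spread 11 were higher and 188 lower, and on posterior mean TPM 19 and 223. Among the 128 pairs without shared exon bases 8 were higher and 90 lower, by construction from fewer pairs. On expected counts, with no division by length, 12 pairs were higher and 241 lower. Of the 16 higher on TPM, 9 were so on counts and 5 were lower instead. The median ratio of -3.68 ranged from -3.71 to -3.65 with 1 library, and was -4.72 with 0.01 TPM added, -1.95 with 1 TPM added, -5.67 on expected counts, -3.47 on posterior mean TPM and -4.43 over pairs with a member at 10 counts or more. Of the 80 named pairs, 6 that were past the spread on TPM changed sign on expected counts. Emx2os, at 0.074, was within the spread there. The other 5 were past it: Cebpzos at -0.82, Epb41l4aos at -1.97, Has2os at -1.50, Ino80dos at -1.77 and Lrp8os2 at -0.68. On counts, 5 named pairs within the spread passed it (Evx1os, Slc7a6os, Dnah2os, Hectd2os and Prox2os). Lhx1os and Tnfsf13os were within the spread on counts and with 0.01 TPM added, as were Has2os and Lrp8os2 with 1 TPM added and Dlx6os2 with 0.01 TPM added. Detected transcripts over 1.5-fold apart between the libraries numbered 3, or 2 after rescaling. No paired analysis was possible because the labels give 1 group. Transcripts under 10 counts limit most of the lower pairs, whose ratios depend on the value added.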

Other observations

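Antisense and divergent RNAs whose symbols follow other rules were also present. Of 20 such RNAs listed, 18 were matched to a gene, and 14 of these were at 1 TPM or more in both libraries. Tug1, which starts back to back with a protein-coding gene, had 129.29 and 146.79 TPM, above every opposite-strand transcript of the same library. Airn, the antisense RNA of the imprinted Igf2r locus, had 38.29 and 34.69 TPM. Ftx, of the X-inactivation centre, had 12.03 and 13.08 TPM, and Nespas, of the imprinted Gnas locus, 10.19 and 10.86 TPM. RNAs of the Hox clusters lay lower: Hotairm1 had 6.87 and 6.27 TPM, Hottip 5.20 and 6.71 TPM, and Hotair, of the HoxC cluster, 1.33 and 1.06 TPM. Dlx1as, beside the homeobox gene Dlx1, had 2.15 and 2.28 TPM. Fendrr, Halr1, Pantr2 and Haglr stayed under 1 TPM, with Haglr, of the HoxD cluster, at 0.90 and 0.57 TPM.

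Among transcripts not detected in both libraries, Prss23os had no count in replicate 1 and 33.59 expected counts, or 1.68 TPM, in replicate 2, against 22.33 and 25.75 TPM for Prss23. The gene models of that pair share 864 exon bases.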
